A study of Chlorocebus sabaeus with 3 samples.

Results

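Interferon-stimulated genes were examined in limbus, cornea, and conjunctiva of vervet monkeys, on 1 array for each of the 3 tissues. The list held 36 genes that cells switch on in response to interferon, and a gene was included when a probe set carried its symbol alone. This left 35 of 36 genes, among 19775 genes read on the arrays in the same way. STAT2 was not analysed here. The animals were about 3 years old and carried no treatment or genetic change named in the labels. Limbus, cornea, and conjunctiva came from the same eye. Whether several eyes were pooled for an array is not given in the sources used here. Each dissected piece held the epithelium with tissue beneath it, namely part of the stroma in the cornea and the limbus and Tenon tissue in the conjunctiva. The question was which interferon-stimulated transcripts differ between the limbus and its neighbors.

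Interferons are secreted proteins that signal through surface receptors and JAK kinases to STAT proteins, which enter the nucleus with IRF9 and switch on a large set of genes. Type I and type III interferons act mainly through a complex that holds STAT2 and IRF9, whereas type II interferon strongly induces IRF1, guanylate-binding proteins, and the immunoproteasome. The products sense viral nucleic acid, degrade or sequester viral RNA, mark proteins with ISG15, hold virions at the cell surface, and shape peptides for antigen presentation. At the ocular surface they form part of the first defense against viruses such as herpes simplex and adenovirus.

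All values are RMA intensities on a linear scale, given as deposited. Vervet RNA was read on human arrays, as no vervet array was available. How well each probe set matches its vervet transcript was not tested. The median over 54675 probe sets lay between 48.8 and 50.7 on the 3 arrays, so a value under about 50 was in the lower part of an array. For GAPDH, the signal of the 3′ control over that of the 5′ control, which reflects how far amplification reached along the transcript, ran from 3.12 in limbus to 4.58 in cornea. The same ratio for ACTB was larger and ordered the tissues otherwise, from 10.3 in conjunctiva over 11.2 in cornea to 11.8 in limbus. The part of amplification in the differences below was not tested. Tissue markers followed the labels. All 6 corneal markers, such as keratin 12 (KRT12), were highest in the cornea, and all 7 conjunctival markers, such as the goblet cell mucin MUC5AC, were highest in the conjunctiva. Without replicate arrays no difference could be compared with a replicate error, no p-value is given, and the only internal check was another probe set of the same gene. In whole tissue, fewer cells of a type and less RNA per cell cannot be told apart.

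The cornea had the lowest value for most interferon-stimulated genes. It was lowest for 29 of the 35, compared with 33.2% of all genes, while the conjunctiva was lowest for 5 (33.9% of all genes) and the limbus for 1 (33.0%). As deposited, the highest value was in the conjunctiva for 19 (36.7%), in the limbus for 13 (24.9%), and in the cornea for 3 (38.4%). Of the 35, 19 were at least 2-fold apart between some pair of tissues, compared with 13.9% of all genes. The limbus was at least 2-fold above the cornea for 14 genes, against a background of 4.06% of all genes. The conjunctiva was at least 2-fold above the cornea for 15, against 5.68%. In the opposite direction, 0 of 35 passed this threshold for cornea over limbus, with a background of 2.51%, and 0 of 35 for cornea over conjunctiva, with a background of 5.31%. The median log2 difference of the 35 genes was 0.76 for limbus minus cornea and 0.58 for conjunctiva minus cornea. Over all genes these medians were -0.05 and -0.01. Both comparisons use the same cornea array, so they are not independent of each other.

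**Figure D1:**
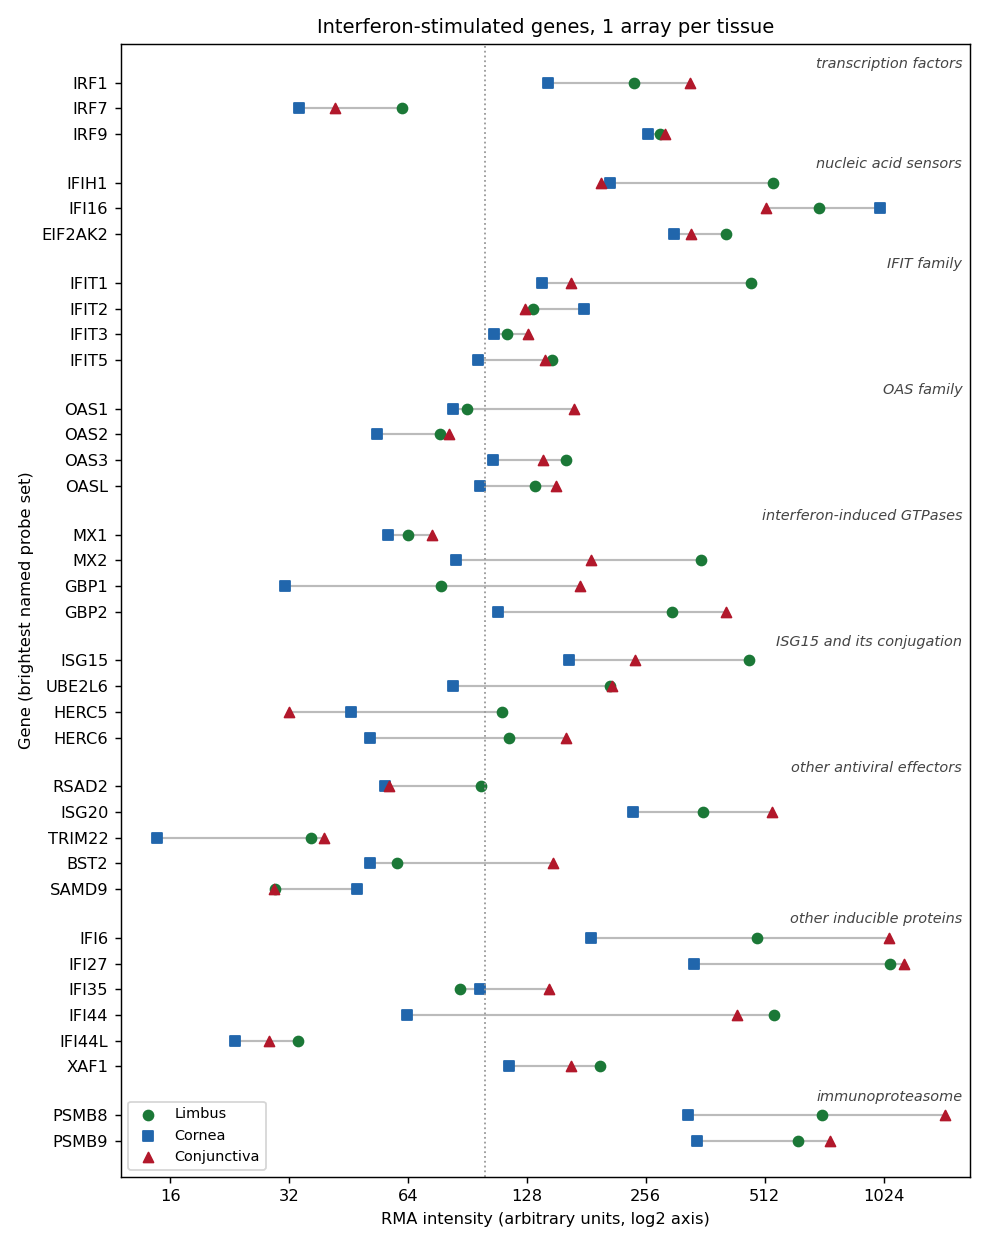
RMA intensity (log2 axis) of the 35 interferon-stimulated genes with circles for limbus, squares for cornea, and triangles for conjunctiva, 1 array each, grouped by role, with a dotted line at 100. The cornea is the leftmost symbol for 29 genes, and IFI44 has the widest span, from 63.5 to 539.6.

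Between the limbus and the conjunctiva the same genes were divided. The median difference of limbus minus conjunctiva was -0.04, equal to that of all genes at this precision. The limbus was at least 2-fold above the conjunctiva for 3 genes (background 2.62%) and the conjunctiva above the limbus for 4 (background 2.31%). Against both other tissues together, the limbus was at least 2-fold higher for IFIH1, IFIT1, and HERC5 (3 of 35, background 0.475%). The conjunctiva was for GBP1, BST2, IFI6, and PSMB8 (4 of 35, background 1.68%), and the cornea was for 0 of 35 (background 1.89%). The balance of these numbers depended on how the arrays were scaled. With hybridization control scaling, in which every value of an array is divided by the average signal of its spiked control transcripts and which moved the median of all genes to 0.76 for limbus minus cornea, 0.52 for limbus minus conjunctiva, and 0.24 for conjunctiva minus cornea, the limbus was at least 2-fold above the conjunctiva for 8 (13.1% of all genes with this scaling) and below it for 0 (0.582%). This scaling adds 1 constant to the log2 difference of every gene, so members with a smaller difference in the other direction changed sign by construction. As deposited, 19 members were higher in the conjunctiva than in the limbus. Of these, 12 turned to higher in the limbus, among them IRF1, GBP2, HERC6, and PSMB9. GBP1, BST2, IFI6, and PSMB8 differed by more than that constant and remained higher in the conjunctiva.

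A few orders of the tissues accounted for most genes. In 18 genes the conjunctiva was highest and the cornea lowest as deposited, compared with 20.5% of all genes. With hybridization control scaling, 12 of these were higher in the limbus than in the conjunctiva. As deposited, the limbus was highest and the cornea lowest in 11 genes, compared with 12.7%. The limbus was highest with the conjunctiva lowest in 2, IFIH1 and HERC5, compared with 12.2% of all genes. The cornea was highest in 3, namely IFI16, IFIT2, and SAMD9, and in IFI35 the limbus was lowest, although with hybridization control scaling the limbus was above the cornea in all 4.

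The transcription factors differed among themselves, and 1 of the 3 passed 2-fold. IRF1, an early activator of interferon-responsive promoters, had a value of 238 in limbus, 145 in cornea, and 332 in conjunctiva. The conjunctiva was thus 2.29-fold above the cornea. A second IRF1 probe set had values of 103, 101, and 199, in the same order, so as deposited the conjunctiva was highest on both while the limbus was close to the cornea on the second. IRF9, the DNA-binding subunit of the complex with STAT2, stood at 278, 260, and 286, a range of 1.10-fold, the narrowest of the 35 genes. IRF7, which drives expression of the type I interferons themselves, was dim in all tissues, at 61.7, 33.8, and 41.7.

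Among the cytoplasmic and nuclear sensors, IFIH1 was a limbus transcript. IFIH1 encodes MDA5, which detects long double-stranded RNA. It reached 539 in the limbus, compared with 207 in cornea and 197 in conjunctiva, a difference of 2.60-fold and 2.73-fold, respectively. The other IFIH1 probe sets had values of 16.4 or lower in every tissue and showed no such difference, so the pattern rests on 1 probe set. EIF2AK2, the RNA-activated kinase PKR that halts translation, was at 408, 303, and 333. Its other probe set above 100 had 90.8, 135, and 111 and was highest in the cornea, so the order of the tissues was unsettled for this gene. IFI16, which binds DNA in the nucleus and the cytoplasm, was highest in the cornea as deposited, with 704 in limbus, 1001 in cornea, and 515 in conjunctiva, and the cornea was 1.94-fold above the conjunctiva. This probe set ends in _x_at, a mark of possible cross-hybridization. The other IFI16 probe sets were under 50 in every tissue, 1 of them highest in the cornea at 47.5 and the other nearly level at 42.5, 38.7, and 40.8, so the order of the tissues was unsettled for IFI16.

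The IFIT family, whose products bind RNA with foreign ends and block its translation, did not move as a unit. IFIT1, which recognizes RNA caps that lack a host methyl mark, was at 474 in limbus, 140 in cornea, and 166 in conjunctiva. Limbus exceeded cornea by 3.40-fold and conjunctiva by 2.86-fold, and 154 of 19775 genes were at least as far above the conjunctiva. Cornea and conjunctiva were close to each other for IFIT1. IFIT3, the partner that stabilizes IFIT1, was at 114, 106, and 129, and IFIT2, which binds AU-rich RNA, was at 132, 178, and 127. On its brightest probe set IFIT5 was at 149, 96.0, and 142. On the other IFIT5 probe set, under 100 in every tissue, the limbus was 2.62-fold and the conjunctiva 2.32-fold above the cornea.

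The oligoadenylate synthetases activate the ribonuclease RNase L when they meet double-stranded RNA. On their brightest probe sets, all 4 family members were lowest in the cornea. OAS1 was at 90.2 in limbus, 83.2 in cornea, and 168 in conjunctiva. The conjunctiva was 2.02-fold above the cornea, just past the threshold. The second OAS1 probe set placed the limbus highest instead, at 89.5, 50.8, and 66.9. For OASL, a family member without synthetase activity, the brighter probe set was at 134, 97.4, and 152. Its second probe set was at 127, 45.3, and 99.3, with the limbus 2.80-fold above the cornea. OAS2 and OAS3 ranged over 1.52-fold each. The other OAS2 probe sets, under 100 in every tissue, differed in order. The cornea was lowest on 1 of them, at 44.3, 32.2, and 54.8, and highest on another, at 31.7, 51.2, and 45.7.

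Of the role groups, the interferon-induced GTPases had the largest median of limbus minus cornea (1.39), and their median of conjunctiva minus cornea was 1.53. MX2, which restricts HIV and herpesviruses, was at 354 in limbus, 84.5 in cornea, and 186 in conjunctiva. Limbus exceeded cornea by 4.18-fold and conjunctiva by 1.91-fold. MX1, the broad inhibitor of influenza and other RNA viruses, had 1 named probe set, at 64.1, 56.8, and 73.5, so the MX genes differed in size of difference although the order against the cornea was the same.

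The guanylate-binding proteins coat the membranes around intracellular microbes. GBP1 and GBP2, the members of this family in the list, were highest in the conjunctiva on their brightest probe sets. With hybridization control scaling, however, GBP2 was highest in the limbus. GBP2 was at 298 in limbus, 108 in cornea, and 408 in conjunctiva. Conjunctiva exceeded cornea by 3.77-fold and limbus did so by 2.75-fold. On the second GBP2 probe set, at 51.1, 31.1, and 50.4, limbus and conjunctiva were nearly equal. GBP1 was at 77.5, 31.2, and 175 on a probe set whose name marks possible cross-hybridization. A second GBP1 probe set was at 109, 18.7, and 199, with the conjunctiva 10.6-fold and the limbus 5.83-fold above the cornea. Both had the conjunctiva above the limbus, but only the first by at least 2-fold. The remaining GBP1 probe sets were dim.

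**Figure D2:**
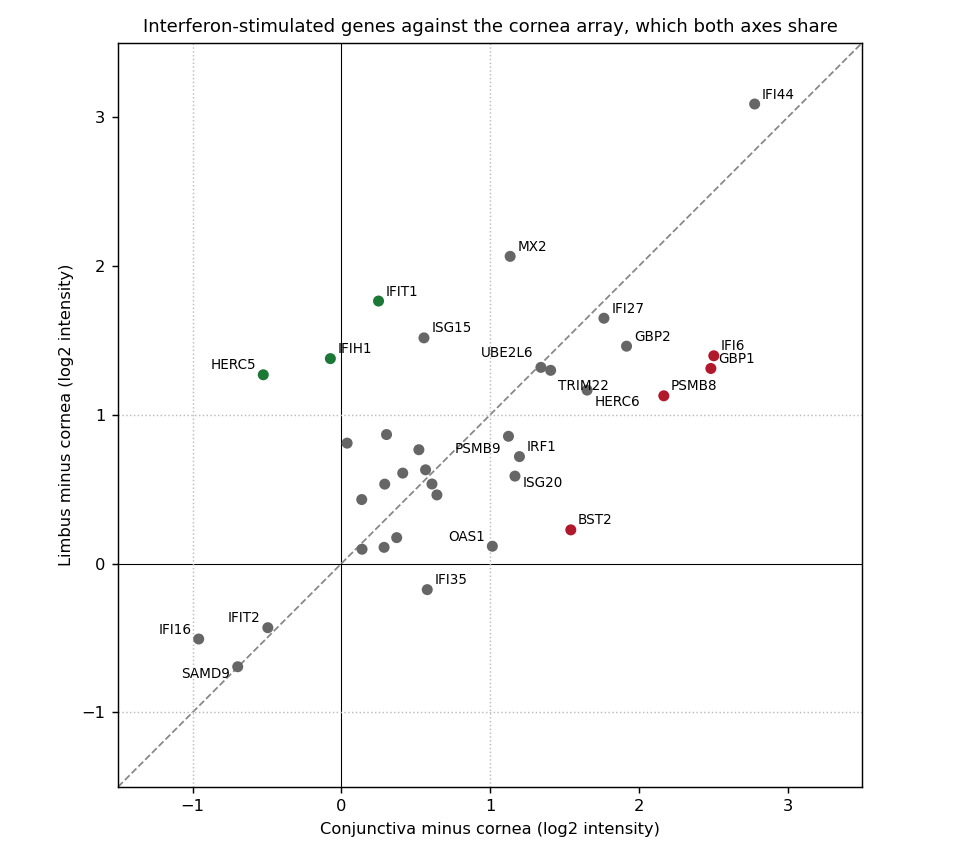
Log2 difference of limbus minus cornea (vertical) against conjunctiva minus cornea (horizontal) for the 35 genes; dotted lines mark 2-fold and the dashed line marks equal limbus and conjunctiva. IFIT1, IFIH1, and HERC5 (green) passed 2-fold for limbus over both other tissues, and GBP1, IFI6, PSMB8, and BST2 (red) for conjunctiva over both.

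Only in the group of ISG15 and the enzymes that attach it was every member at least 2-fold higher in limbus than in cornea. This was 4 of 4 genes, compared with 4.06% of all genes. With a pseudocount of 32, ISG15 and UBE2L6 kept this difference, and HERC5 and HERC6 did not. HERC6 also lost it when its probe sets were combined by their median difference. ISG15, a ubiquitin-like modifier, was at 467 in limbus, 163 in cornea, and 240 in conjunctiva. Limbus exceeded cornea by 2.86-fold and conjunctiva by 1.95-fold. UBE2L6, the conjugating enzyme for ISG15, was at 208, 83.2, and 211. Limbus and conjunctiva were nearly equal for it, and both were about 2.5-fold above the cornea. The ligases differed. HERC5, the main ISG15 ligase in human cells, was at 111 in limbus, 45.9 in cornea, and 31.9 in conjunctiva, and 95 of 19775 genes were at least as far above the conjunctiva. The HERC5 values in cornea and conjunctiva were under the medians of their arrays. HERC6, which takes that role in the mouse, was at 115, 51.3, and 161 and was highest in the conjunctiva as deposited, and in the limbus with hybridization control scaling. Each of these 4 genes was read from its only probe set or, for HERC6, from the only one not dim in every tissue.

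Among the other antiviral effectors, BST2 and ISG20 were highest in the conjunctiva. BST2, or tetherin, which holds budding virions at the plasma membrane, was at 60.0 in limbus, 51.3 in cornea, and 149 in conjunctiva. Conjunctiva exceeded limbus by 2.49-fold and cornea by 2.91-fold. ISG20, an exonuclease, was at 358, 238, and 535, and the conjunctiva was 2.24-fold above the cornea. On its second probe set ISG20 was at 322, 206, and 333, a difference of 1.61-fold. RSAD2, or viperin, which makes a chain-terminating nucleotide, was at 97.9, 55.9, and 57.4, with the limbus 1.75-fold above the cornea. TRIM22, a ubiquitin ligase, was at 36.3, 14.8, and 39.2, all under the median of their arrays. SAMD9, which restricts poxviruses, was under 50 in every tissue. The cornea was highest on its brightest probe set, at 29.4, 47.6, and 29.4, and lowest on the other, at 30.4, 25.6, and 30.4.

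The remaining inducible proteins held the widest difference of the list. IFI44, a cytoplasmic protein of little known biochemical function, was at 540 in limbus, 63.5 in cornea, and 435 in conjunctiva. The limbus was 8.50-fold and the conjunctiva 6.85-fold above the cornea, and 47 of 19775 genes had at least as large a difference between limbus and cornea. The second IFI44 probe set was under 26 in all tissues and showed a difference of only 0.32 on the log2 scale. IFI27, a small protein of mitochondrial membranes, was at 1066, 340, and 1155, with limbus and conjunctiva both more than 3-fold above the cornea. IFI6, a related small membrane protein, was at 491, 187, and 1057. For IFI6 the conjunctiva exceeded cornea by 5.67-fold and limbus by 2.15-fold, whereas for IFI27 it was nearly equal to the limbus.

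XAF1, which opposes an inhibitor of apoptosis, was at 196 in limbus, 115 in cornea, and 166 in conjunctiva. A second XAF1 probe set was at 165, 76.4, and 216, with the conjunctiva 2.83-fold above the cornea. IFI35 was at 86.4, 97.6, and 146, and IFI44L was under 34 in every tissue. XAF1 was therefore lowest in the cornea on both probe sets that reached 100, and the order of limbus and conjunctiva was not the same on them.

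The immunoproteasome subunits, which replace standard catalytic subunits and alter the peptides made for MHC class I, were highest in the conjunctiva, although with hybridization control scaling PSMB9 was highest in the limbus. PSMB8 was at 714 in limbus, 327 in cornea, and 1468 in conjunctiva. Conjunctiva exceeded cornea by 4.49-fold and limbus by 2.06-fold, and the latter was no longer 2-fold once the arrays were quantile normalized together or scaled by their medians. PSMB9 was at 623, 344, and 750, and the conjunctiva was 2.18-fold above the cornea.

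Several of these genes lie side by side in the vervet genome (assembly mChlSab1.0.hap1), and neighbors did not always share a pattern. IFI44 and IFI44L are adjacent, and the limbus minus cornea difference was 3.09 for the first and 0.53 for the second. For the adjacent MX2 and MX1 it was 2.06 and 0.17. HERC6 and HERC5 are adjacent as well, and their limbus minus conjunctiva differences were -0.49 and 1.79. IFIT1 lies next to IFIT5 and is separated from IFIT3 by 1 gene, with limbus minus conjunctiva differences of 1.51, 0.06, and -0.18, respectively. IFI44L and MX1 were dim, and the ratios of dim probe sets are the less certain ones. The part of the match between human probes and vervet transcripts in these contrasts was not tested.

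A second probe set was available for 19 of the 35 genes, and 26 such probe sets were read. The sign of limbus minus cornea was the same as on the brightest probe set in 17 of 26, and that of conjunctiva minus cornea in 17 of 26. Of the 26, 20 were under 100 in every tissue. Among the 6 that reached 100, the sign was shared in 5 for each of these differences, and EIF2AK2 was the exception in both. For limbus minus conjunctiva the sign was shared in 3 of the 6, so the order of limbus and conjunctiva was less secure within a gene than the position of the cornea.

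**Figure D3:**
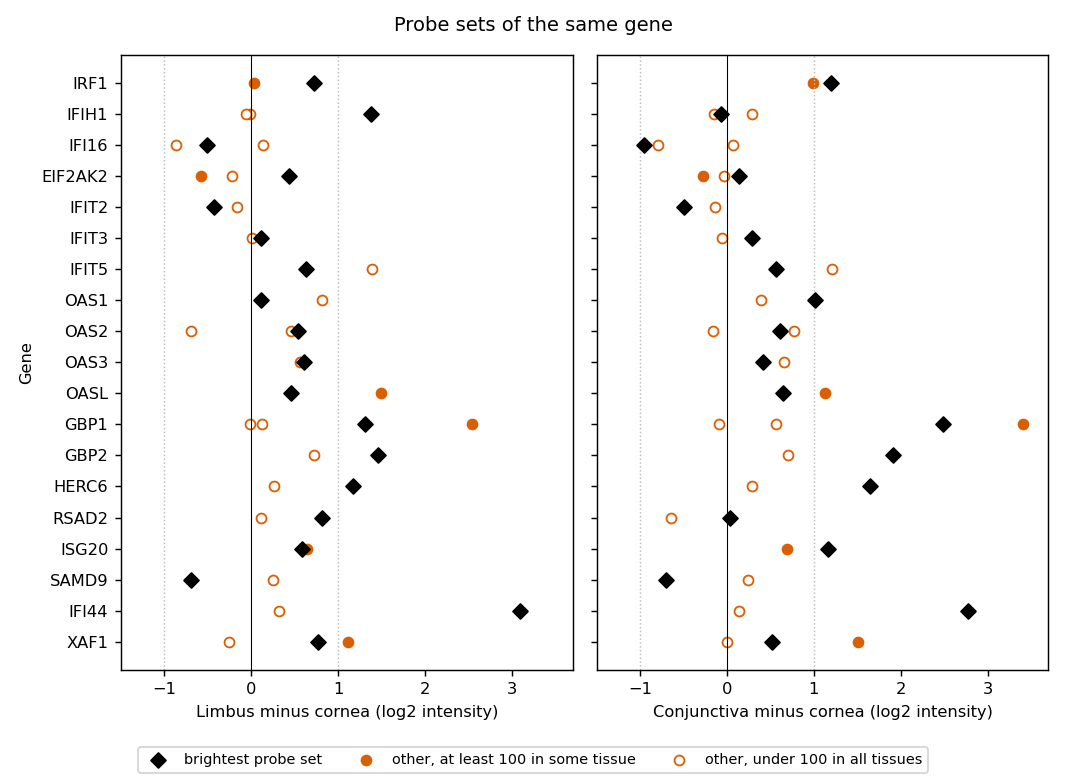
Log2 difference of limbus minus cornea (left) and conjunctiva minus cornea (right) for the 19 genes with more than 1 named probe set, with the brightest probe set as a diamond and others as circles, filled where they reached 100 in some tissue. Of the 6 filled circles, 5 have the sign of the diamond in each panel.

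Another 44 genes of the pathway were interferons, receptors and kinases, sensors and adaptors, further IRFs, and negative regulators. Of these, 5 were at least 2-fold apart between some pair of tissues, a share near the 13.9% of all genes. All 12 interferon genes measured, among them IFNB1, IFNG, and the epithelial IFNK, were under 60 in every tissue, and 0 of 12 were at least 2-fold apart. These values were near or below the median of the arrays, where an expressed and a silent gene cannot be told apart. Of 9 receptor and kinase genes, 3 were at least 2-fold apart, each with another order of the tissues. IFNAR2, a chain of the type I receptor, was at 323 in limbus, 150 in cornea, and 168 in conjunctiva, while IFNAR1, the other chain, was at 75.2, 168, and 123. JAK2, the kinase of the type II receptor, was at 339, 287, and 163. JAK1, shared by all interferon receptors, ranged only from 911 to 967. Each gene of these lists was read from its brightest probe set. Other probe sets, present for IFNAR1, IFNAR2, and JAK2 among others, were not compared.

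Of 13 sensors and adaptors that trigger interferon production, 2 were at least 2-fold apart. RIGI, which detects short RNA with a triphosphate end, was at 227, 93.3, and 160, and MYD88, the adaptor of most Toll-like receptors, was at 163, 311, and 133. MYD88 was thus highest in the cornea. Among 4 further IRFs and 6 negative regulators, including SOCS1 and USP18, 0 were at least 2-fold apart, compared with 13.9% of all genes. Over all 44 of these pathway genes the median difference was 0.05 for limbus minus cornea and 0.18 for conjunctiva minus cornea, compared with 0.76 and 0.58 for the 35 members. Of the 44, 19 were under 100 in every tissue, compared with 7 of the 35 members. The part of signal level in this contrast was not tested.

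A further list of interferon-induced genes outside the 35, of which 37 of 40 were measured, was lowest in the cornea in 25 cases, compared with 33.2% of all genes. The limbus was at least 2-fold above the cornea for 9 of 37 (4.06% of all genes) and the conjunctiva for 13 of 37 (5.68%). IFITM1, which blocks viral fusion, was at 309 in limbus, 69.4 in cornea, and 565 in conjunctiva. The chemokine CXCL10, a ligand of the receptor CXCR3 on T cells, was at 331, 44.3, and 292, and CXCL9, another ligand of CXCR3, was at 80.9, 42.5, and 184. IDO1, a tryptophan-degrading enzyme induced by type II interferon, had the widest range of this list at 9.3-fold, with 208, 38.2, and 357. The phospholipid scramblase PLSCR1 was at 482, 161, and 534. These genes shared the low cornea value of the members. TNFSF10, the death ligand TRAIL, did not, and was at 424, 1118, and 250.

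Several others of this list passed 2-fold with smaller differences. IFITM2 was at 1800 in limbus, 846 in cornea, and 2386 in conjunctiva, and IFITM3 at 1356, 1041, and 2104. PARP9 was at 234, 112, and 264, PARP14 at 161, 75.0, and 162, and LGALS3BP at 191, 85.9, and 231. TRIM14, an adaptor of antiviral signaling, was the exception in that limbus and cornea were close, at 149 and 134, with 375 in the conjunctiva. IFITM2 and IFITM3, like IFNAR2 and RIGI above, were read from probe sets that end in _x_at.

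Markers of leukocytes and vessels moved in the same direction as the interferon-stimulated genes. Of 18 leukocyte markers, 16 were lowest in the cornea and 17 highest in the conjunctiva, and their summed intensity was 1862 in limbus, 1259 in cornea, and 3215 in conjunctiva. PTPRC, the CD45 antigen common to leukocytes, was at 81.9, 18.8, and 352, and TYROBP, an adaptor of myeloid and natural killer cells, at 121, 32.8, and 183. All 8 endothelial markers were lowest in the cornea, with sums of 1703, 598, and 2412. Of these, 5 were highest in the conjunctiva, among them PECAM1 at 462, 45.9, and 675. The other 3, KDR, TEK, and EMCN, were highest in the limbus, with EMCN at 223, 41.6, and 162. Of 5 markers of plasmacytoid dendritic cells, a main source of type I interferon, 0 were at least 2-fold apart. Over all genes this share was 13.9%. With only 5 markers, 4 of them under 100 in every tissue, the count decides little. The limbus was highest for 3 of them and the conjunctiva for 2, with sums of 359, 320, and 358. CLEC4C was under 23 in every tissue, while LILRA4 was at 100.1, 95.3, and 93.5, IL3RA at 99.2, 93.6, and 79.2, and TCL1A at 92.5, 52.3, and 83.6. SPIB was at 51.7, 61.9, and 79.4 and, like CLEC4C, was highest in the conjunctiva and lowest in the limbus. The lowest value on any array was 7.23, so 0 markers were at 0. For comparison, the 35 members summed to 9584, 5338, and 10310.

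Some members departed from the order of most leukocyte markers. IFIT1, ISG15, MX2, IFIH1, and HERC5 had more signal in limbus than in conjunctiva, by 1.91-fold to 3.47-fold, whereas 17 of 18 leukocyte markers had more in conjunctiva than in limbus, with a median limbus minus conjunctiva of -0.58, which with hybridization control scaling became -0.02 against 0.52 for all genes. These genes were chosen after their values were seen. Melanocyte markers were also highest in the limbus (5 of 5), and MLANA was at 303, 32.9, and 113. The part of leukocytes, vessels, and pigment cells in the values of the interferon-stimulated genes was not tested.

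**Figure D4:**
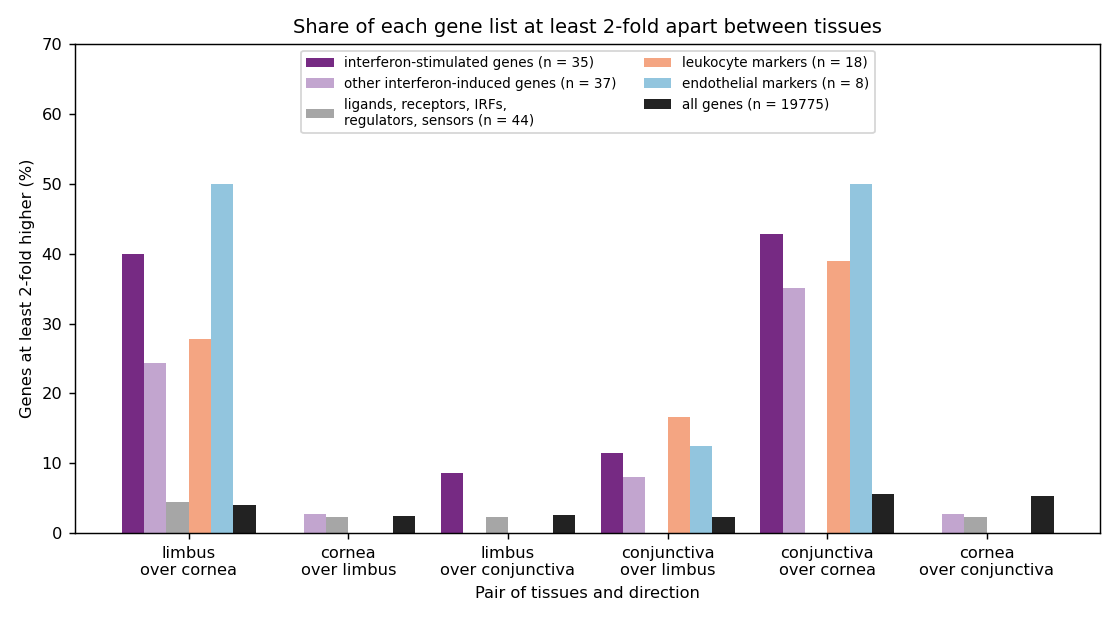
Percentage of genes of each list that were at least 2-fold higher in the first than in the second tissue of a pair, with the number of genes measured in the legend. The 35 interferon-stimulated genes have 14 members past 2-fold for limbus over cornea and 15 for conjunctiva over cornea, and 0 in either direction that favors the cornea.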

How the data were processed

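RNA from limbus, cornea, and conjunctiva was amplified in rounds, labeled with biotin, and hybridized to human U133 Plus arrays, with 1 array per tissue. Background correction, normalization, and summary into probe sets were done by the authors with justRMA (version not given in the sources used here). Each of the 3 arrays went through RMA apart from the others, beside reference arrays that were the same each time. The deposited values were linear intensities for 54675 probe sets, with 0 columns of other samples. Probe sets were named from an annotation of 2016, which gave 1 gene symbol to 41097, several to 1801, and left 11777 unnamed here.

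Each gene was read from its brightest named probe set (by mean log2 value over the tissues), which gave 19775 genes. Ratios were taken between tissues without further scaling. A gene was counted when it was at least 2-fold higher, with no filter on level. The named genes are all members, with every value given for those that were at least 2-fold apart between some pair of tissues and reached 100, and for bright members with a small range. Genes of the pathway lists and of the further interferon-induced list are named if they met the same 2 limits, or as examples. Markers of tissues and cell types are named as examples only, and others of them met the same limits. Members and lists were chosen with earlier results of these data known. There is no replicate, so no test was made, and precision is limited by how few arrays there are. The counting was tested on simulated arrays. Alternatives varied the threshold, a pseudocount of 32, a minimum of 100, the scaling of the arrays, and the choice of probe set. Promoter motifs, planned at first, were not analysed here. The analysis used Python 3.11.15, numpy 2.4.6, pandas 2.3.3, and matplotlib 3.10.9.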

Additional observations from a re-analysis of the deposited data

How the results depend on the processing

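The members' medians of limbus minus cornea and of conjunctiva minus cornea were above 0 under every alternative tried, and counts not given here stayed within 1.5 times. Shares of all genes under the same alternative stand in parentheses. With a threshold of 1.5-fold, the limbus was above the cornea for 22 members (9.82%), above the conjunctiva for 6 (8.38%), and above both for 6 (2.19%), and the cornea was above the conjunctiva for 2 (13.2%), above the limbus for 1 (10.4%), and above both for 1 (6.29%). At 3-fold, the conjunctiva was above the cornea for 7 (2.86%), above the limbus for 0 (0.566%), and above both for 0 (0.501%), while the limbus was above the cornea for 4 (1.74%), above the conjunctiva for 1 (0.693%), and above both for 0 (0.106%). A pseudocount of 32 left 2 members, IFI6 and PSMB8, higher in the conjunctiva than in the limbus (1.26%) and than in both (1.06%). The limbus was then above both for 2 (0.217%), without HERC5. It was above the cornea for 10 (2.43%), without GBP1, HERC5, HERC6, and TRIM22. The pseudocount of 32 also lowered the medians to 0.55 for limbus minus cornea and 0.45 for conjunctiva minus cornea. With a minimum of 100 the latter median was 0.83. This filter favors genes that are high in some tissue. With every probe set counted the median of limbus minus cornea was 0.53. After median scaling the cornea was 2-fold above the conjunctiva for 1 member, IFI16 (5.93%). Scaling by the hybridization controls, which raises every limbus value, gave 27 members for limbus over cornea (27.9%), 8 for limbus over conjunctiva (13.1%), and 7 for limbus over both (5.73%), with 0 for conjunctiva over limbus (0.582%) and 0 for conjunctiva over both (0.576%), and medians of 1.57, 0.51, and 0.82 for limbus minus cornea, limbus minus conjunctiva, and conjunctiva minus cornea. With all probe sets of a gene combined by their median difference, limbus minus cornea turned to -0.012 for IFIH1, whose other probe sets were at 16.4 or lower, and to -0.22 for EIF2AK2, and conjunctiva minus cornea turned to -0.039 for EIF2AK2 and -0.30 for RSAD2. RSAD2 also turned, to -0.018 and -0.020, after median scaling and quantile normalization. Without probe sets that end in _x_at, GBP1 was no longer 2-fold above the limbus in the conjunctiva, and IFI16, read from a dim probe set, turned to 0.13 for limbus minus cornea and 0.074 for conjunctiva minus cornea. No paired analysis was possible because each tissue had 1 array. Values near 50 limit the dim members, TRIM22, SAMD9, IRF7, and IFI44L among them.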
